A study of Mus musculus with 12 samples.

Results

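Rpl3l was read by 1 probe set on 12 arrays of mouse heart RNA, 4 from control mice, 4 from mice with the IDH2 R140Q mutant and 4 from mice with the IDH2 R172K mutant. Members were to be the probe sets whose only annotated symbol is Rpl3l or Rpl3. Of the 2 genes, 1 had such a probe set, out of 19937 genes in all. Rpl3 is named on 6 probe sets, each of which also carries the symbol of another gene or pseudogene. No value is therefore credited to Rpl3, and no ratio of the 2 paralogs is given. The rule itself holds no threshold, but Rpl3l was picked because its values differed between these groups, so its values are described here without a test.

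RPL3L is a ribosomal protein of the large subunit that is made mainly in heart and skeletal muscle, where it takes the place of its widely expressed paralog RPL3. Both occupy the same site in the ribosome, close to the centre where peptide bonds form. Variants of human RPL3L are known in inherited heart muscle disease and atrial fibrillation. In mouse hearts that lack Rpl3l, more Rpl3 is known to be made.

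IDH2 is the isocitrate dehydrogenase of mitochondria, and its R140Q and R172K forms are known to make D-2-hydroxyglutarate. All mice shared a mixed background of the strains 129/sv, Balb/c and C57BL/6. Mutant mice received 4-hydroxytamoxifen, 2 mg on 3 days at the age of 5 weeks, and the labels do not state what controls received, so the drug and the mutation cannot be told apart. The promoter that drives the mutant IDH2, the cells that express it, the sex of the mice and their age at dissection are not stated either. Nothing in the labels says that arrays of a group came from separate animals, so errors and p-values reflect only how far these samples differ. Where single hearts are counted or compared below, arrays are meant.

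Levels are RMA intensities, in which background is corrected, arrays are brought to a common scale and the probes of a set are merged into 1 value; they are given in log2 unless called intensity units. Array medians lay between 74.8 and 78.04 intensity units. Cardiomyocyte markers were bright on every array, with a mean log2 intensity of 12.20 to 12.87 over 16 genes. Some arrays stood apart in other tissue markers. The mean of 9 atrial markers was 10.56 on control 3 and 10.03 on R172K 3, against 7.46 to 9.65 on the other arrays. The mean of 7 lung markers was 8.76 on R140Q 4, against 5.89 to 6.42 elsewhere. Rpl3l values are given below with and without these 3 arrays.

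RefSeq lists 2 start sites for Rpl3l on chromosome 17 in build GRCm38.p6, 4859 bases apart on the plus strand, the second of them inside the gene. The 250 bases before each start are shown because the gene is read from here. Some of the transcription factors of heart muscle measured on the same arrays are known to bind motifs of the kinds searched. Capitals mark matches on either strand to 8 motifs: the E-box CANNTG, the GATA motif AGATAA, the T-box motif AGGTGT, the NKX motif AAGTG, the M-CAT motif CATTCC, the TATA box TATAAA, and, by name, the MEF2 and CArG motifs.
Rpl3l, first start, chr17:24727576-24727825, plus strand: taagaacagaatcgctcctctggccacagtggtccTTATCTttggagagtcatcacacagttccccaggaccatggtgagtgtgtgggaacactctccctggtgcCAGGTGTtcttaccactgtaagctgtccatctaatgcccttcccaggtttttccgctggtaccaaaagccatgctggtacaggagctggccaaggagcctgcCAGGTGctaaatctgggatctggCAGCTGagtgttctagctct
Rpl3l, second start, chr17:24732435-24732684, plus strand: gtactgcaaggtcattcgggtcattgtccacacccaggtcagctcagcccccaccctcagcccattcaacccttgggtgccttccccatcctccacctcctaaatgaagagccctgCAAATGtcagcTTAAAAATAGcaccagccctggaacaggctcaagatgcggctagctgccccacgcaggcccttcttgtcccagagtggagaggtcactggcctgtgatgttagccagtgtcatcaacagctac

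The first window holds 3 E-boxes, 1 GATA match and 1 T-box match, and the T-box match overlaps an E-box. The second window holds 1 E-box and 1 MEF2 match, which begins 123 bases before the start. Among 32544 windows of the same length before RefSeq starts, 66.2% hold an E-box, 9.97% the GATA motif, 11.9% the T-box motif and 2.89% a MEF2 match. The NKX, M-CAT, CArG and TATA motifs have no match in either window. A match describes these letters and shows no binding. The array data do not tell the 2 starts apart.

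The first question was how the level of Rpl3l differed between mutant and control hearts. Rpl3l was a bright gene in control hearts, with a group mean above that of 96.2% of genes. Its log2 intensity was 10.45, 10.82, 10.35 and 10.44 in control replicates 1 to 4. The 4 control arrays lay within 0.47 of each other, and their mean was 10.52 ± 0.21 (SD, n = 4). In R140Q hearts the log2 intensity was 7.92, 9.96, 9.01 and 9.26 in replicates 1 to 4, with a mean of 9.04 ± 0.85. In R172K hearts it was 8.47, 8.73, 9.34 and 7.82, with a mean of 8.59 ± 0.63. All 8 mutant arrays lay below all 4 control arrays. The nearest were R140Q 2 at 9.96 and control 3 at 10.35, and the lowest of all was R172K 4, followed closely by R140Q 1.

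**Figure D1:**
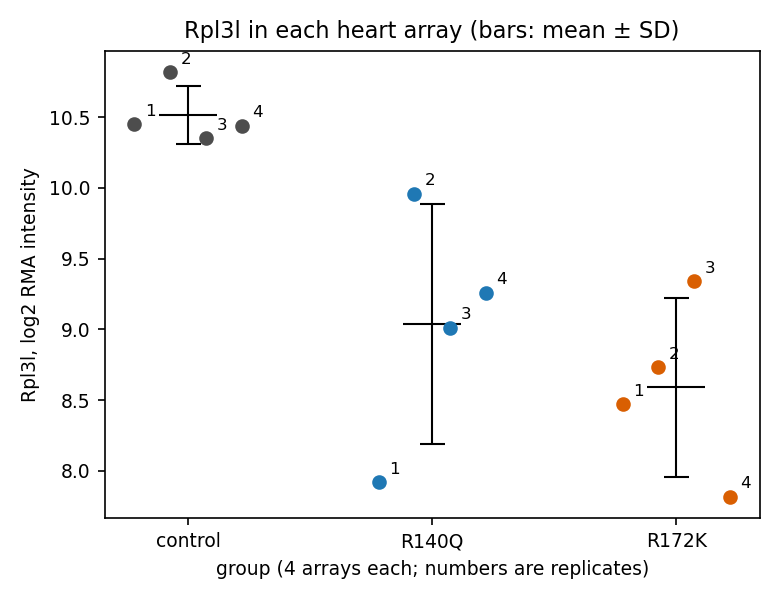
Log2 RMA intensity of Rpl3l (vertical axis) in each of the 12 arrays, by group; points are arrays labelled with their replicate number, and bars are the group mean ± SD of 4 arrays. Every mutant array lies below the lowest control array, at 10.35, and the R140Q and R172K arrays overlap.

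Rpl3l differed from control by -1.48 ± 0.38 (SE) in log2 in R140Q hearts and by -1.93 ± 0.38 in R172K hearts. The geometric means were 35.9% and 26.3% of the control level, or 2.79-fold and 3.80-fold lower. Groups that do not overlap, with the mutant below control, were common in these data. Of all genes 7.04% showed this for R140Q and 8.72% for R172K, so the separation of Rpl3l by itself is shared with many genes. Its size is rarer: 18 of 19937 genes had a more negative difference in R140Q hearts and 13 in R172K hearts. Both differences use the same 4 control arrays. As Rpl3l was picked for this pattern, these places describe it and test nothing.

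Without control 3, R140Q 4 and R172K 3, the arrays that stood apart in atrial or lung markers, Rpl3l differed from control by -1.61 in R140Q and by -2.23 in R172K hearts. Control 3 had the lowest Rpl3l of its group (10.35) and R172K 3 the highest (9.34). R140Q 4 (9.26) lay above its group mean (9.04). Their removal therefore had to enlarge both differences, and the larger values are no added support. With any 1 array left out the difference ran from -1.79 to -1.11 for R140Q and from -2.18 to -1.67 for R172K, and it was smallest without R140Q 1 and without R172K 4, the hearts with the lowest Rpl3l in their groups.

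The difference between the 2 mutants was small beside the spread within them. Rpl3l was -0.45 ± 0.38 (SE) in log2 in R172K relative to R140Q hearts, and the groups overlapped over most of their range. The interval of that difference ran from -1.26 to 0.37 at the 95% level, so neither a clearly lower level in R172K hearts nor an equal one can be read from these arrays. It was -0.14 without R140Q 2 and -0.82 without R140Q 1. The order of group levels was therefore control above both mutants, with the 2 mutants not separated.

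The arrays of 1 mutant group differed from each other in Rpl3l more than control arrays did. On the linear scale the brightest R140Q array had 4.11 times the intensity of the dimmest, and the brightest R172K array 2.88 times, while in control hearts the ratio was 1.38. The SD of Rpl3l in R140Q hearts was larger than that of 99.7% of genes in the same group, and in R172K hearts larger than that of 98.2%. In control hearts it was larger than that of 89.6%. Control hearts had a mean intensity of 1476 ± 225 (SD, n = 4), R140Q hearts one of 592 ± 312 and R172K hearts one of 414 ± 177.

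Since Rpl3l is a muscle gene, its level was set beside markers of the heart's cell types. In bulk RNA, fewer cardiomyocytes and less Rpl3l RNA per cardiomyocyte cannot be told apart. The summed intensity of 16 cardiomyocyte markers, all of them measured, ran from 133368 to 140501 in control hearts, from 121885 to 129622 with R140Q and from 98346 to 124128 with R172K, and none was at 0 in any group. Of these 16 genes none was called changed in R140Q hearts by limma (a linear model fitted across all genes) at an adjusted p under 0.05, against 2.20% of all genes, and 8 fell in R172K hearts, against 6.78% of all genes called lower and 13.0% called in either direction. The ventricular light chain gene Myl2 fell by 0.54 (limma adjusted p = 0.0109) in R172K hearts and passed whichever array was left out. None of the 16 had as negative a difference as Rpl3l in either mutant: the most negative was -0.46 in R140Q and -0.65 in R172K hearts.

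Taken relative to the mean log2 intensity of the same markers, Rpl3l was still lower on every mutant array. Its log2 intensity minus the marker mean was -2.45 to -2.03 in control hearts, -4.75 to -2.68 in R140Q hearts and -4.39 to -3.32 in R172K hearts. The group differences on this scale were -1.32 and -1.60, compared with -0.15 and -0.32 for the marker mean itself. When the marker mean entered the fit as a covariate, the difference from control was -1.08 ± 0.38 (SE) in R140Q and -1.10 ± 0.51 in R172K hearts. That between the mutants was -0.02 ± 0.39. The marker mean was 12.78 to 12.87 in control, 12.61 to 12.76 in R140Q and 12.20 to 12.66 in R172K hearts. As control overlaps with neither mutant, the fit can hardly separate marker level from group, and the adjusted differences from control are uncertain. R172K 4 had both the lowest marker mean, 12.20, and the lowest Rpl3l. R140Q 1 had nearly as little Rpl3l with a marker mean of 12.67, within the range of the other R140Q hearts.

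**Figure D2:**
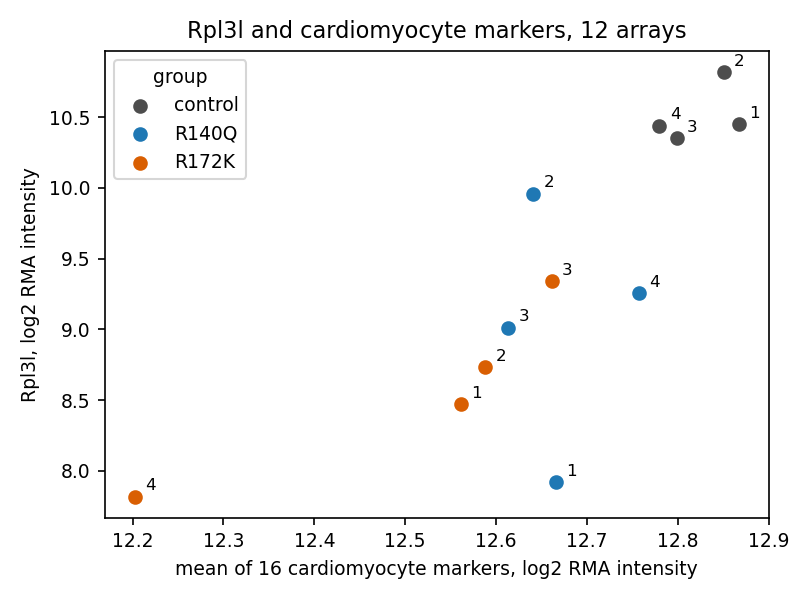
Log2 RMA intensity of Rpl3l (vertical axis) against the mean log2 intensity of 16 cardiomyocyte markers (horizontal axis); each point is 1 array, coloured by group and labelled with its replicate number. Control arrays sit at the upper right, R172K 4 at the lower left, and R140Q 1 lies low in Rpl3l at a marker mean of 12.67.

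Markers of other cells moved with the mutants as well, and their part in the Rpl3l values was not tested. The summed intensity of 12 fibroblast markers ran from 12796 to 17643 in control hearts, from 13678 to 20305 with R140Q and from 16265 to 31124 with R172K. Of all genes, 1.08% were called higher in R140Q and 6.23% in R172K hearts, and the counts of marker genes that rose stand against these shares. Of the fibroblast markers none was called in R140Q hearts and 7 rose in R172K hearts, among them Pdgfra (0.62, limma adjusted p = 0.00454). Endothelial markers rose in 3 of 10 genes in R140Q and 2 of 10 in R172K hearts, and macrophage markers in 0 of 12 and 2 of 12; counts of 2 in lists this short are no result about the list. The endothelial sum ran from 9305 to 9699 in control hearts, from 11662 to 12424 with R140Q and from 10232 to 12172 with R172K. The macrophage sum ran from 3399 to 5104, from 4224 to 4957 and from 3611 to 9591 in the same order. Smooth muscle and pericyte markers rose in 0 of 8 genes in R140Q and 2 of 8 in R172K hearts, again too few to read against the share of all genes. Skeletal muscle, the other tissue known for Rpl3l, was judged from 12 markers, none of which was called in either mutant. Their summed intensity ran from 1040.4 to 1462 in control hearts, from 796 to 1224 with R140Q and from 822 to 1132 with R172K, low beside the cardiomyocyte sum. Of 7 lymphocyte, 5 adipocyte and 2 erythroid markers measured, none was called in either mutant. Of 7 lung markers 1 fell in both mutants, Hopx, which heart muscle also expresses. It fell by 1.43 in R172K hearts (limma adjusted p = 0.00517) whichever array was left out. It fell by 1.10 in R140Q hearts (adjusted p = 0.0469), a call that held only without R140Q 2, R172K 3 or R172K 4. Of 9 atrial markers, Clu fell by 0.83 in R140Q hearts (adjusted p = 0.0193), though not past the threshold without control 1 or control 3, and Pam rose by 0.59 in R172K hearts (adjusted p = 0.0457), which held only without control 3 or R140Q 2. The summed atrial intensity ran from 10123 to 36228 in control hearts, from 5501 to 16394 with R140Q and from 17474 to 27694 with R172K.

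The next comparison asked whether other genes of the ribosome moved like Rpl3l. Ribosomal proteins of the cytosol form the large and small subunits, and their genes are normally expressed together. Of 78 such genes other than Rpl3, 55 had a probe set of their own. None of the 55 was called in R140Q hearts, where 2.20% of all genes were. Their differences ran from -0.48 to 0.41, with a median of -0.07 against 0.00302 for all genes. In R172K hearts 6 of 55 rose (10.9%) and none fell, against 6.23% of all genes called higher and 6.78% called lower. The median there was 0.02, against -0.00335 for all genes, and the range -0.24 to 0.41. None of the 55 measured genes came near the Rpl3l differences of -1.48 and -1.93.

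**Figure D3:**
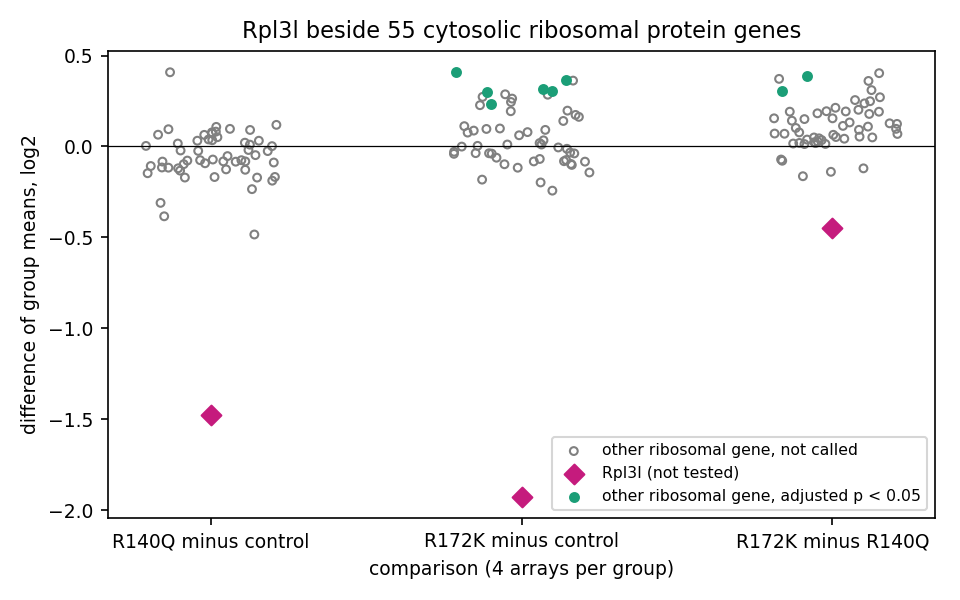
Differences of group means in log2 (vertical axis) for Rpl3l (diamond, not tested) and 55 other cytosolic ribosomal protein genes (circles) in 3 comparisons. Each has 4 arrays per group, and circles are filled where the limma adjusted p was under 0.05. The other genes lie between -0.48 and 0.41, while Rpl3l lies at -1.48 and -1.93 in the comparisons with control and at -0.45 between the mutants.

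The 6 genes that rose in R172K hearts were Rpl4 (0.37 ± 0.07 SE, limma adjusted p = 0.00807), Rpl36a (0.41, adjusted p = 0.0107), Rpl22 (0.31, adjusted p = 0.0119), Rpl6 (0.30, adjusted p = 0.0368), Rpl14 (0.23, adjusted p = 0.0402) and Rps25 (0.31, adjusted p = 0.0398). The first 5 belong to the large subunit, as do Rpl3l and Rpl3, and Rps25 to the small one. Rpl4, Rpl36a and Rpl22 passed whichever array was left out. The Rpl6 call was lost on leaving out control 1, control 3, control 4, R140Q 4, R172K 1 or R172K 4 (adjusted p up to 0.108). The Rpl14 call survived only the removal of R140Q 2 or R172K 2 (up to 0.121 otherwise). The Rps25 call survived only the removal of control 2, R140Q 2 or R172K 3 (up to 0.119 otherwise). The count of 6 became 3 on leaving out control 1, control 3, control 4, R140Q 4, R172K 1 or R172K 4, and 11 without R172K 3, and 8 without control 3, R140Q 4 and R172K 3 together. It was 0 with the cardiomyocyte marker mean as a covariate, in a fit that called 80 genes in place of 2593.

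Between the mutants the other ribosomal protein genes lay mostly higher in R172K hearts, the opposite side of 0 from Rpl3l. The difference was positive for 50 of 55 genes, or for 43 with each array centred on its median, and the median was 0.10 against -0.00317 for all genes. Of all genes, 51.1% had a negative difference before such centring. Only 2 of 55 (3.64%) passed the test, both higher, Rpl36a (0.39, limma adjusted p = 0.0495) and Rpl14 (0.31, adjusted p = 0.0469), against 1.48% of all genes called and 0.487% called higher. With 1 array left out the count was 9 without R172K 3 and 0 without any of the other 11, with adjusted p values up to 0.160 for Rpl36a and 0.149 for Rpl14.

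Paralogs of other ribosomal proteins gave no call. Of 7 such genes, 5 were measured, and their differences ran from -0.30 to 0.15 in R140Q and from -0.14 to 0.07 in R172K hearts. The elongation factor 1 alpha genes, a further pair of which 1 form, Eef1a2, is typical of adult muscle and neurons and the other, Eef1a1, of most cells, could both be read. They belong to a list of 12 elongation and release factors, of which none was called in R140Q hearts. From this list 2 rose and 1 fell in R172K hearts (25% of the list, against 13.0% of all genes). With 12 genes these shares cannot be set apart. In R172K hearts Eef1a2 fell by 0.33 (limma adjusted p = 0.0144), and it passed whichever array was left out. Eef1a1 rose by 0.35 (adjusted p = 0.0203), but failed without control 1, control 2 or R172K 1 (adjusted p up to 0.0658). In R140Q hearts the differences were -0.07 (adjusted p = 0.717) for Eef1a2 and 0.04 (adjusted p = 0.865) for Eef1a1. Neither gene's R172K and R140Q levels differed past the threshold (adjusted p = 0.102 for Eef1a2 and 0.0960 for Eef1a1).

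Genes that handle RPL3 itself were looked at next. GRWD1 is the counterpart of a yeast chaperone that binds newly made RPL3, and METTL18 methylates a histidine of RPL3. Grwd1 differed by 0.07 in R140Q (limma adjusted p = 0.735) and by 0.02 in R172K hearts (adjusted p = 0.907). Mettl18 differed by -0.09 (adjusted p = 0.769) and by -0.08 (adjusted p = 0.745). Neither passed the test in either mutant. HNRNPH1, KHSRP and NPM1 take part in the control by which RPL3 limits the splicing of its own RNA. Hnrnph1 fell by 0.30 in R172K hearts (adjusted p = 0.0233), a call that ended without control 1, control 2, R172K 1 or R172K 2 (adjusted p up to 0.0764). The R172K difference was -0.09 for Khsrp (adjusted p = 0.552) and 0.34 for Npm1 (adjusted p = 0.0868), and none of the 3 passed in R140Q hearts.

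Genes of ribosome assembly and ribosomal RNA synthesis were read as 3 lists. In R172K hearts 10.3% of assembly factors, 12.5% of RNA polymerase I genes and 22.2% of a list of 9 small nucleolar RNP proteins were called, against 13.0% of all genes. The list of 9 is too short to set its share apart. Of 39 large subunit assembly factors measured, 1 rose in R140Q hearts, the nucleolar GTPase gene Gnl3 (0.55, limma adjusted p = 0.0481). In R172K hearts 3 rose and 1 fell, Gnl3 (0.54, adjusted p = 0.0161), Lsg1 (0.34, adjusted p = 0.0163) and Mak16 (0.42, adjusted p = 0.0454) being higher and Rrs1 lower (-0.47, adjusted p = 0.0240). Gnl3 passed in R172K hearts whichever array was left out, but in R140Q hearts it held only without R172K 3 or R172K 4. Lsg1 failed without R172K 1, Rrs1 without control 1, control 3, R172K 2 or R172K 4, and Mak16 without any 1 array other than control 3 and R172K 3. The median difference of the list was 0.09 in R140Q and 0.08 in R172K hearts. Of 9 core proteins of small nucleolar RNPs, which modify ribosomal RNA, Dkc1 fell by 0.56 (adjusted p = 0.00248) and Nhp2 rose by 0.44 (adjusted p = 0.0107) in R172K hearts, both whichever array was left out. In R140Q hearts Dkc1 was the only one of the 9 called, and it fell by 0.37 (adjusted p = 0.0437). That call held only without R140Q 2 or R172K 1, 3 or 4.

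Of 16 genes for transcription by RNA polymerase I, which makes ribosomal RNA, none was called in R140Q hearts and 2 fell in R172K hearts. These were the polymerase subunit gene Polr1b (-0.37, limma adjusted p = 0.0355), which failed without control 1, 2 or 4 or R172K 1 or 3, and the factor gene Ubtf (-0.26, adjusted p = 0.0468), which passed only without R140Q 4, R172K 3 or R172K 4. Myc, an activator of ribosome synthesis, differed by 0.66 in R140Q (adjusted p = 0.427) and 0.61 in R172K hearts (adjusted p = 0.350). On R172K 4 Myc lay at 8.44, with 7.34 as the next highest R172K value.

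The mTORC1 kinase complex and LARP1 control translation of the messages of ribosomal proteins. Of 12 genes of this list none was called in R140Q hearts, and in R172K hearts 1 rose and 2 fell (25% of the list, against 13.0% of all genes). A list of 12 genes is too short to set these shares apart. Mtor rose by 0.45 (limma adjusted p = 0.0318), the translation repressor gene Eif4ebp2 fell by 0.44 (adjusted p = 0.0110) and Larp1 fell by 0.18 (adjusted p = 0.0482). Eif4ebp2 passed whichever array was left out. The Mtor call was lost on removal of any 1 control array, R172K 1 or R172K 2, and that of Larp1 on removal of any 1 array other than R172K 3. Initiation factors had 8 calls among 29 genes in R172K hearts, 6 higher and 2 lower, and none in R140Q hearts. The R172K share was 27.6%, against 13.0% of all genes, 6.23% of them higher and 6.78% lower, while 2.20% of all genes were called in R140Q hearts. Eif4a1 rose by 0.42 (adjusted p = 0.0107) and its paralog Eif4a2 fell by 0.37 (adjusted p = 0.0131), both whichever array was left out.

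A list of 14 transcriptional regulators of heart muscle included Mef2, Gata and T-box members, whose motifs were searched above, and others without a searched motif. None was called in R140Q hearts and 1 in R172K hearts (7.14%), numbers that 14 genes cannot set apart from the 2.20% and 13.0% of all genes called. Myocd, a coactivator of SRF, fell in R172K hearts (-0.50, limma adjusted p = 0.0265) and failed without control 1, control 2 or R172K 4. Srf, whose product binds the CArG motif, was lower in R172K than in R140Q hearts (-0.40, adjusted p = 0.0400). That call held only without R140Q 2 or R172K 3.

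Position on the chromosome was checked through the genes on each side of Rpl3l. In RefSeq order the measured neighbours are Rnf151, Rps2 and Ndufb10 before it and Msrb1, Hs3st6 and Meiob after it. Ndufb10, a subunit gene of respiratory complex I, differed by -0.13 in R140Q (limma adjusted p = 0.643) and by -0.16 in R172K hearts (adjusted p = 0.398). Rps2, itself a ribosomal protein gene, differed by -0.08 (adjusted p = 0.685) and -0.07 (adjusted p = 0.655). Msrb1, a methionine sulfoxide reductase gene, was higher, by 0.57 in R140Q (adjusted p = 0.0288) and by 0.42 in R172K hearts (adjusted p = 0.0330). Its R140Q call ended on leaving out control 1, 3 or 4 or R140Q 1, 3 or 4 (adjusted p up to 0.0950), and its R172K call on leaving out control 1, 3 or 4 or R172K 1 or 2 (up to 0.1003). It also ended in both without control 3, R140Q 4 and R172K 3 together. Of the 6 neighbours, none was lower past the threshold in either mutant.

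Genes with a pattern like that of Rpl3l were ranked by Pearson's r of log2 intensity over the 12 arrays, which share their groups, so r describes likeness and carries no test. Of 19936 other genes, 99 had r above 0.9 and 35 had r below -0.9. The most alike was Fitm1, which serves lipid droplet formation in muscle, with r = 0.961. It was followed by the little-studied Cabcoco1 (0.955), the pyrophosphate exporter gene Ank (0.955), the mitochondrial Tcaim (0.948), the mitochondrial inner membrane gene Mpv17 (0.948) and Etfb, a subunit gene of the electron transfer flavoprotein of fatty acid oxidation (0.948). With group means removed, r with Rpl3l stayed between 0.814 and 0.877 for these 6. The order of arrays within a group was not the same for all of them: Rpl3l was lowest on R172K 4 among R172K hearts, and Cabcoco1 on R172K 1.

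The values of Fitm1 show how close the likeness was. Its difference from control was -0.77 in R140Q and -1.13 in R172K hearts, less than for Rpl3l, while Spearman's rho with Rpl3l was 0.972. Cabcoco1 differed more, by -2.23 and -2.87. Ank differed by -0.37 and -0.52, and Mpv17 by -0.71 and -0.94. These genes were chosen for their likeness on the same arrays, and their differences are therefore not tested here.

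The genes most opposed to Rpl3l were the esterase gene Esd (r = -0.944), the extracellular matrix gene Svep1 (-0.940), the deubiquitinase gene Otub2 (-0.940), Cacng7 (-0.931), the collagen gene Col8a1 (-0.931) and the cytoskeletal linker gene Gas2l3 (-0.930). Svep1 differed from control by 1.40 in R140Q and 1.84 in R172K hearts, Col8a1 by 1.64 and 2.28, and Esd by 0.47 and 0.57. With group means removed, r with Rpl3l lay between -0.864 and -0.757 for these 6.

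**Figure D4:**
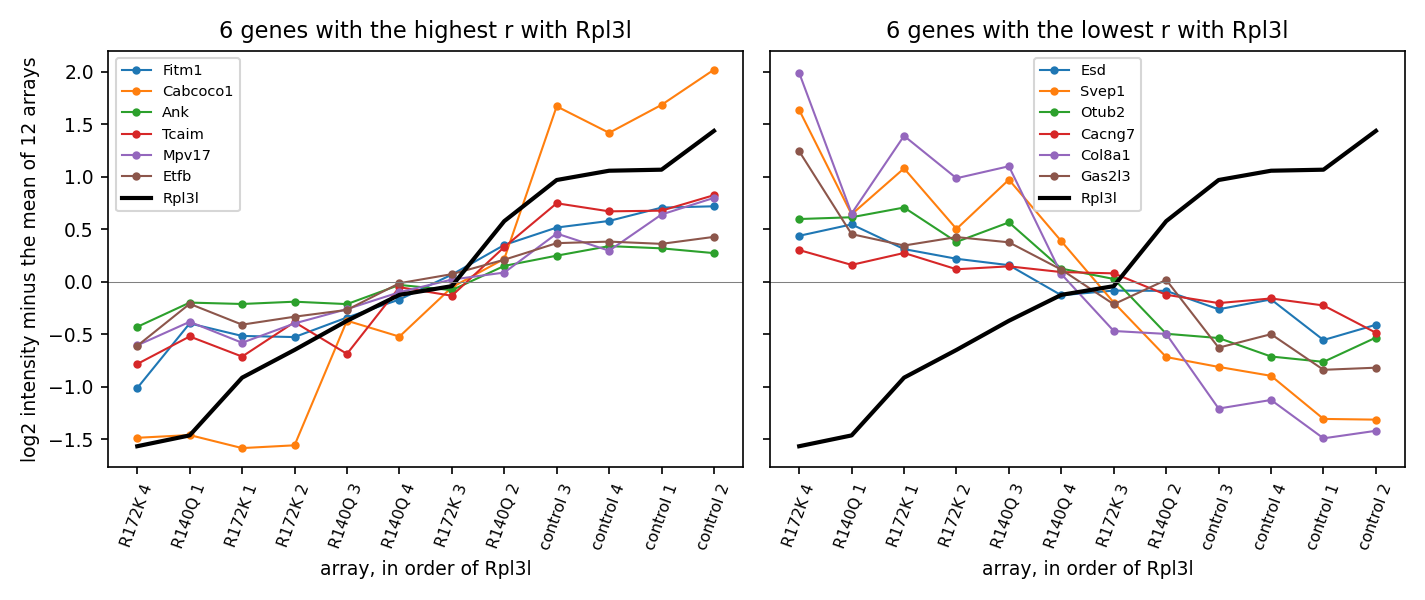
Log2 intensity minus the mean of 12 arrays (vertical axis) for Rpl3l (black) and the 6 genes with the highest (left) and the lowest (right) Pearson's r with it, with arrays ordered by Rpl3l from R172K 4 to control 2. The genes on the left rise and those on the right descend along this order; Cabcoco1 and Col8a1 span a wider range than Rpl3l, and the other 10 genes a narrower one.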

How the data were processed

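The deposited table holds 1 intensity per probe set and array for 34760 probe sets. Per the submitters' processing notes the authors used RMA, of a version not stated there. From its values (4.43 to 17591) the deposited intensity was judged linear, so log2 was taken without a pseudocount. Probe sets with 1 symbol (21640) gave 19937 genes, the brightest probe set standing for each of 954 genes with several; 1321 with several symbols and 11799 with none named no gene. IDs of 21553 matched GRCm38.p6, with no symbol changed. RMA evens out the arrays, which hides any shift common to most genes, and no detection call was used. The number of arrays limits precision.

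Groups were fitted together with limma 3.58.1 in R 4.3.3 (lmFit, eBayes, two-sided), with Benjamini-Hochberg adjustment over all genes. A gene was called at an adjusted p under 0.05. The fit was tested on simulated data. The planned values of Rpl3 and of its ratio to Rpl3l were dropped for lack of a probe set of its own.

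Members, lists and the naming rule were chosen with earlier results of these data known. The rule named Rpl3l, genes of RPL3 handling, up to 4 called members per list, all called ribosomal protein genes, 6 genes at each end of likeness to Rpl3l, and 3 neighbours on each side. Of 334 list genes, 293 were measured. Alternatives covered the arrays fitted, the replicate number as a block, probe set, dim genes, scaling, variance, weights, threshold, a marker covariate and each array left out. The closest 2 arrays, control 1 and control 2, had a median absolute log2 difference of 0.117. No distance between arrays of 1 sample is known here, so this cannot show whether any 2 arrays share a sample.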

Additional observations from a re-analysis of the deposited data

Results flagged for a closer look

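Probe sets outside the main measurement stood above control. Of the 6 probe sets that list Rpl3 among several symbols, 2 had all 8 mutant arrays above all 4 control arrays, a pattern that 2.41% of all 34760 probe sets showed. On probe set 10515154 the lowest mutant array read 8.62 and the highest control array 8.48, and on probe set 10598721 these were 10.81 and 10.77.

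For 5 named genes the R140Q and R172K effects differed from each other, by limma's contrast of R172K with R140Q. The naming rule takes called list members of this contrast, so the count follows from the rule. Of all genes, 1.48% were called in it. The 5 genes were Rpl36a (0.39), Rpl14 (0.31), Srf (-0.40), the atrial light chain gene Myl4 (3.52, adjusted p = 0.0458) and Pdgfra (0.75, adjusted p = 0.0207). Myl4 failed without control 1, control 4, any 1 R140Q array or R172K 1, 2 or 4, and Pdgfra without R140Q 1, R140Q 4, R172K 1 or R172K 2.

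For Rpl3l no array lay far enough from its group by Dixon's test to stand out. Among the other genes that the naming rule gave, single arrays did so, which chance brings in about 1 in 20 groups. Of all genes, 5.12% showed such an array among control hearts, 5.50% among R140Q and 6.53% among R172K hearts. In control hearts these were control 4 for Npm1 (8.98), control 2 for Rpl14 (7.30), and control 3 for Clu (11.27) and Rnf151 (5.50). In R140Q hearts they were R140Q 1 for Mtor (9.42), R140Q 2 for Mak16 (7.47) and Pam (11.62), R140Q 3 for Eif3c (10.30) and Rps2 (12.13), and R140Q 4 for Cbx7 (8.35). In R172K hearts they were R172K 4 for Myc (8.44), R172K 3 for Lsg1 (7.81), Eif4a2 (10.87) and Cabcoco1 (7.31), and R172K 1 for Hs3st6 (6.06).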

How the results depend on the processing

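Rpl3l lay below control in both mutants under all 22 alternatives run for it, which reuse the same arrays. R172K minus R140Q was negative under all 22 too, but as small as -0.02 ± 0.39 (SE) with the cardiomyocyte marker mean as a covariate. That sign does not separate the 2 mutants. The R172K difference of Rpl3l from control, -1.93, moved by more than the spread between replicates once, to -1.10 with the same covariate. With 1 array left out it ran from -1.79 to -1.11 for R140Q, from -2.18 to -1.67 for R172K and from -0.82 to -0.14 between the mutants.

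Counts of calls depended far more on the setting. For R140Q against control, the 439 genes became 1342 with only the 8 arrays compared, 1651 with array weights, 73 at an adjusted p under 0.01, 142 with the marker covariate and 100 to 1015 with 1 array left out. For R172K the 2593 genes became 4491 with weights, 773 at the stricter threshold, 80 with the covariate and 1327 to 4157 with 1 array left out. Between the mutants the 296 genes became 9 with 8 arrays, 449 without the dimmer genes, 179 with trended and robust variance, 1774 with weights, 1 at the stricter threshold, 806 without control 3, R140Q 4 and R172K 3, 167 with the covariate and 1 to 1577 with 1 array left out. Centring each array on its median gave 288 higher and 185 lower genes for R140Q in place of 216 and 223, and 78 higher and 330 lower between the mutants in place of 97 and 199.

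The 6 ribosomal protein genes called in R172K hearts became 3 with 8 arrays, 14 with weights, 1 at the stricter threshold, 0 with the covariate and 3 to 11 with 1 array left out. The 2 called between the mutants became 1 with every probe set tested, with centring or with quantile normalization, 9 with weights, 0 with 8 arrays, with trended and robust variance, at the stricter threshold or with the covariate, and 0 to 9 with 1 array left out. None was called for R140Q under any of the 23 alternatives. The marker covariate ended 44 of 44 R172K calls of genes given by the naming rule other than those chosen for likeness, 8 of 9 R140Q calls (all but Pdgfb) and 4 of 5 between the mutants (all but Pdgfra). Myl2, Ttn, Ryr2 and Pln are themselves among the 16 genes of that covariate. Its control values also overlap with those of neither mutant, and the SE of the R172K difference of Rpl3l rose from 0.38 to 0.51. The lost calls therefore do not show what the differences depend on. Leaving out control 3, R140Q 4 and R172K 3 ended 10 of 44, 6 of 9 and 1 of 5, among them for R172K the calls of Rpl6, Rpl14, Larp1, Ubtf, Rrs1, Polr1b, Myocd and Msrb1, and for R140Q those of Dkc1, Msrb1 and Hopx. The causes were not tested.

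With the replicate block, 196 genes were called for R140Q, 11 between the mutants and 2014 for R172K, with 0, 0 and 4 ribosomal protein genes. Replicate numbers did not pair the arrays: deviations from the group mean correlated above 0.1 in 2 of 12 pairs with the same number, and 3 of 12 arrays correlated best with their own number. Dim probe sets may lie at background.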

Other observations

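The 6 probe sets that list Rpl3 carry 2 or 5 symbols each, among them the predicted gene Gm5879 and, on those with 5, the pseudogene Rpl3-ps1, Ralgps2 and Syngr1. Their values are given by probe set and are credited to no gene. On 10598721 the group means in log2 were 10.42 ± 0.31 (SD, n = 4) for control, 11.18 ± 0.25 for R140Q and 11.67 ± 0.31 for R172K hearts. On 10515154 they were 8.20 ± 0.24, 8.95 ± 0.26 and 9.59 ± 0.45. On 10600324 they were 10.07 ± 0.27, 10.80 ± 0.29 and 11.30 ± 0.32. The means of 10499881 were 9.91 ± 0.21, 10.23 ± 0.33 and 10.56 ± 0.22. The means of 10546054, a dim probe set, were 3.88 ± 0.23, 4.30 ± 0.27 and 5.01 ± 0.71. On 10430669 the means were 8.70 ± 1.10, 11.04 ± 0.48 and 10.68 ± 1.42, with 10.32 on control 3 and 8.61 on R172K 1. All 6 had higher means in both mutants than in control, the reverse of Rpl3l. Of all genes with 1 symbol, 49.1% had a lower mean than control in R140Q and 50.9% in R172K hearts. Those shares take each mutant alone, and the share of probe sets higher in both was not counted. All R172K arrays lay above all control arrays on 5 of the 6, and all R140Q arrays on 3, against 6.37% and 5.87% of all 34760 probe sets. All 6 list Rpl3, so they are not independent of each other. No test was made, and which of the listed genes these probe sets read was not tested.

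Near the locus of Rpl3, whose own level is not given, 6 genes had a probe set of their own: Apobec3, Cbx7 and Pdgfb before it and Syngr1, Tab1 and Mgat3 after it. Pdgfb, a growth factor gene, rose by 0.67 in R140Q hearts (limma adjusted p = 0.0118). It passed whichever array was left out, but not without control 3, R140Q 4 and R172K 3 together. Apobec3, an antiviral cytidine deaminase gene, rose by 0.68 in R172K hearts (adjusted p = 0.0298), a call that ended without control 1, 2 or 4 or R172K 2 or 4. The other 4 did not pass in either mutant.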
